A study of Arabidopsis thaliana with 8 samples.

Results

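A set of 55 probe sets, of 22746 on the array outside its Affymetrix controls, was chosen because estradiol was followed by a higher signal in cells expressing SND1XVE and by little or no change in cells expressing VND7XVE. SND1 and VND7 are NAC transcription factors, and XVE marks their estradiol-activated forms. Signals were transformed to log2(signal + 16), and the effect of estradiol in a line was the mean of its 2 estradiol arrays minus the mean of its 2 control arrays. A probe set was taken when its effect was at least 1.2 in SND1XVE and below 0.7 in VND7XVE, when the effects differed by at least 1, and when its signal was at least 100 on both SND1XVE estradiol arrays. The pectin methylesterase gene AT4G02320 met these thresholds too, as the 56th probe set, and was left out. These same values chose the members, so the effects below are a description and carry no test.

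The 8 arrays were hybridised with biotin-labelled total RNA from Arabidopsis thaliana protoplasts, which are plant cells stripped of their walls. The 4 groups were SND1XVE cells with cycloheximide and estradiol, SND1XVE cells with cycloheximide alone, VND7XVE cells with cycloheximide and estradiol, and VND7XVE cells with cycloheximide alone, with 2 arrays each. Cycloheximide, a blocker of protein synthesis, was thus present in every group, so that genes responding without newly made protein could be sought for each factor. The labels give no dose, duration, age, promoter, source tissue or number of transformed lines, and no group without a factor received estradiol, so estradiol itself and the factor cannot be told apart.

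SND1 is known as a master switch of secondary wall formation in fibres, the supporting cells of the stem, and VND7 as a switch for vessels, the water-conducting cells of xylem, which die as they mature. Both belong to one group of NAC factors, recognise related DNA sites and are known to share many target genes for cellulose, xylan and lignin. Genes that respond to one switch and not to the other are of interest because fibres and vessels differ in wall pattern and in the timing of cell death.

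Of the 55 members, 31 probe sets name 1 gene, 1 names several and 23 carry no gene in the tables used here. Only 3 of the 31 have a symbol beyond their locus code, namely SAG29, HWS and TBL42. Effects in SND1XVE lay between 1.22 and 4.41 with a median of 1.64, and those in VND7XVE between -0.73 and 0.70 with a median of 0.18. Over all 22746 probe sets the median effects were -0.01 and -0.05. The set was small beside its counterparts, since the same thresholds with the lines exchanged were met by 158 probe sets, and 214 had effects of at least 1.2 in both lines at the same signal minimum.

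**Figure D1:**
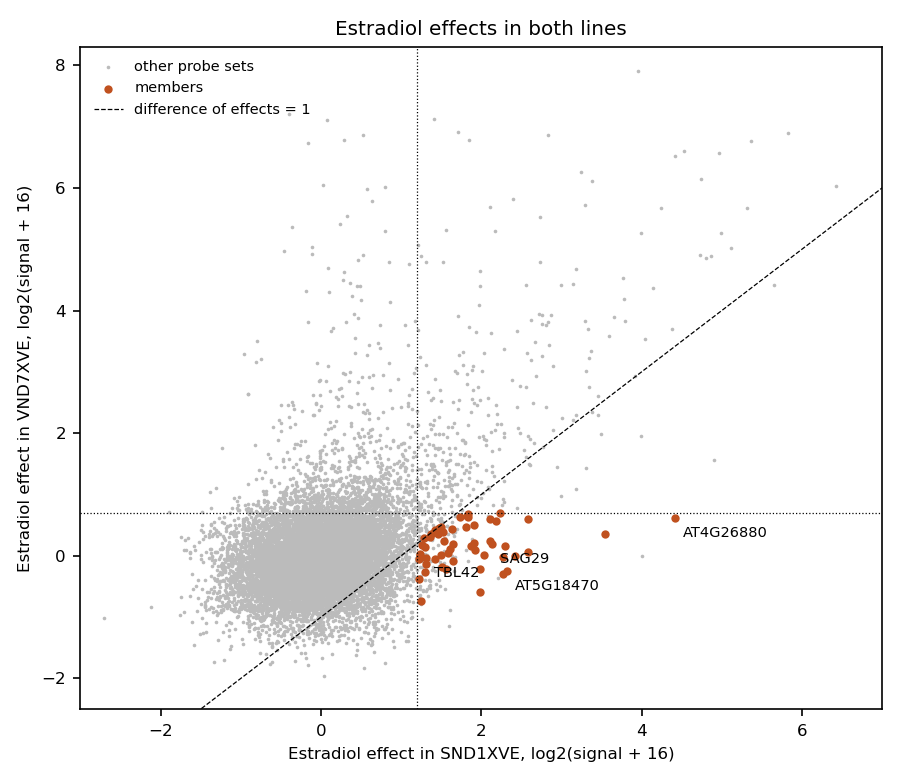
Estradiol effect in SND1XVE (x axis) against that in VND7XVE (y axis), both differences of log2(signal + 16), for every probe set outside the array controls, with the 55 members in orange. Dotted lines mark 1.2 and 0.7 and the dashed line a difference of 1. Grey points inside the same corner missed the signal minimum, except AT4G02320, which was left out; AT4G26880 lies farthest right among the members at 4.41.

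The array medians lay between 108.3 and 109.9 with estradiol, against 98.95 to 102 in controls, and replicate log2 signals correlated at 0.977 to 0.985 within groups. Of 17 markers fixed for mesophyll, guard cells, epidermis and phloem, 3 have a named probe set, RCA and LHCB4.1 for mesophyll and FMA for guard cells, and none of the 3 passed the test in either estradiol comparison. The summed signal of the 2 mesophyll markers was 4855 to 5434 in SND1XVE cells with estradiol, against 4905 to 5153 in their controls. It was 7906 to 7948 in VND7XVE cells with estradiol, against 8236 to 8363 in their controls. Between the lines LHCB4.1 differed more than RCA. Control means of LHCB4.1 were 5537 in VND7XVE and 2688 in SND1XVE, and those of RCA 2762 and 2341. The guard cell marker lay at 55.6 to 79.6 in SND1XVE cells with estradiol, against 94.7 to 118 in their controls, and at 50.1 to 79.9 in VND7XVE cells with estradiol, against 49.1 to 82.9 in their controls. The ratio of 3' to 5' actin signal, a sign of RNA integrity, was 3.21 to 3.30 with estradiol and 2.80 to 2.87 without in SND1XVE cells, and 3.98 to 4.64 with estradiol and 3.72 to 4.16 without in VND7XVE cells. The array medians were thus higher with estradiol in both lines, while the mesophyll sum and the actin ratio were higher in VND7XVE cells, and their part in the results below was not tested. In such bulk RNA, fewer responding cells and less RNA per cell cannot be told apart.

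The members below are grouped by what their genes are known to encode, a grouping made after the values were seen. Proteins of the wall and the cell surface were encoded by 5 members. AT4G26880 encodes a member of the STIG1 family of small secreted cysteine-rich proteins. Its signals were 544 and 490 in SND1XVE cells with estradiol, against 19.7 and 1.5 in SND1XVE controls. In VND7XVE cells they were 48.5 and 36.2 with estradiol, against 15.8 and 29.3 in controls. Its effect was 4.41 ± 0.37 on the log2 scale in SND1XVE (moderated SE, n = 2 arrays per group) and 0.61 ± 0.37 in VND7XVE, the widest gap of any member at 3.80 ± 0.52. With control signals this low the size depends on the pseudocount, and the SND1XVE effect of AT4G26880 was 6.17 with a pseudocount of 1 and 2.97 with one of 64. The VND7XVE arrays with estradiol both lay above their controls, at signals far below those in SND1XVE cells with estradiol. The 2 other family members with a named probe set, AT1G50650 and AT1G50720, had mean signals of 23.6 and 5.4 in SND1XVE cells with estradiol, against 7.6 and 11.3 in their controls, and neither passed the filter on low signal.

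AT5G18470 encodes a protein of the mannose-binding lectin family related to curculin. It gave 3455 and 2725 in SND1XVE cells with estradiol, against 637 and 570 in their controls. In VND7XVE cells it gave 238 and 352 with estradiol, against 350 and 342 in controls, so that those arrays overlapped. The effects were 2.32 ± 0.16 in SND1XVE and -0.24 ± 0.16 in VND7XVE. This was the strongest signal among the members with a VND7XVE effect below 0 that name 1 gene.

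TBL42 belongs to a family that includes enzymes adding acetyl groups to wall polysaccharides. It gave 157 and 155 in SND1XVE cells with estradiol, against 28.1 and 93.3 in their controls, and 5.3 and 33.4 in VND7XVE cells with estradiol, against 35 and 5.6 in their controls. The paired arrays of 3 of these groups were far apart, and the effects of 1.31 ± 0.52 and -0.03 ± 0.52 carry the widest errors of this group. The SND1XVE effect of TBL42 was 0.65 without SND1XVE control replicate 1 and 1.96 without replicate 2. Among 21 relatives with a named probe set, effects in SND1XVE ran from -0.75 to 1.56 with a median of -0.01, and those in VND7XVE from -1.27 to 5.32 with a median of 0.02. Of these relatives 1 reached 1.2 in SND1XVE, TBL34 at 1.56, and 2 reached it in VND7XVE, TBL34 at 5.32 and TBL45 at 1.40. The pattern of TBL42, above 1.2 in SND1XVE and near 0 in VND7XVE, was not seen in the other measured members of its family. Only 11 of the 22 measured, TBL42 included, passed the filter on low signal, so the pattern could have been missed in the rest. TBL42 itself was chosen by the rule for this pattern, so it is not read as a trait particular to this gene.

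AT1G23040, of the hydroxyproline-rich glycoprotein family, gave 5850 and 6150 in SND1XVE cells with estradiol, against 1230 and 1392 in their controls. In VND7XVE cells it gave 1886 and 2090 with estradiol, against 1398 and 1269 in controls, a smaller separation without overlap. The glycine-rich protein gene AT4G32920 gave 674 and 594 in SND1XVE cells with estradiol, against 222 and 124 in their controls, and 338 and 407 in VND7XVE cells with estradiol, against 198 and 258 in their controls. Effects were 2.18 ± 0.11 in SND1XVE and 0.57 ± 0.11 in VND7XVE for AT1G23040, and 1.83 ± 0.21 and 0.68 ± 0.21 for AT4G32920. For both genes the signals were higher with estradiol in each line, by a larger margin in SND1XVE.

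Transport was represented by 3 members. SAG29, also known as SWEET15, encodes a sugar transporter that accumulates in senescing leaves. It gave 162 and 152 in SND1XVE cells with estradiol, against 17.0 and 31.1 in their controls. The VND7XVE arrays overlapped, with 42.3 and 27.3 with estradiol, against 33.3 and 23.4 in controls. Its effects were 2.13 ± 0.36 in SND1XVE and 0.19 ± 0.36 in VND7XVE. The 14 other SWEET genes with a named probe set had effects from -0.92 to 0.75 in SND1XVE and from -0.93 to 1.63 in VND7XVE. In SND1XVE 0 of them reached 1.2. SAG29 itself was chosen by the rule for passing that limit, so the contrast is not read as a trait particular to this gene. Only 7 of the 15 measured, SAG29 included, passed the filter on low signal, so a change in the rest could have been missed. SWEET17, a fructose transporter of the vacuole, and SWEET2 reached 1.2 in VND7XVE, at 1.63 and 1.24, with effects of 0.35 and 0.70 in SND1XVE. SWEET2 also rose in SND1XVE (limma, adjusted p = 0.000199). The difference between the lines (SND1XVE minus VND7XVE) was -1.28 for SWEET17 (limma, adjusted p = 0.00692) and -0.54 for SWEET2, which did not pass (0.0765).

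The other transport genes encode members of the amino acid transporter family. AT5G65990 gave 1263 and 1163 in SND1XVE cells with estradiol, against 224 and 243 in their controls, and 390 and 459 in VND7XVE cells with estradiol, against 386 and 367 in their controls. Its errors were among the smallest of the set, with effects of 2.30 ± 0.13 in SND1XVE and 0.16 ± 0.13 in VND7XVE. AT5G02180 gave 265 and 250 in SND1XVE cells with estradiol, against 110 and 66.8 in their controls, and 72.5 and 84.0 in VND7XVE cells with estradiol, against 90.3 and 74.1 in their controls. Its VND7XVE arrays overlapped, and its effects were 1.42 ± 0.24 and -0.06 ± 0.24. Its neighbour on the chromosome, AT5G02170, encodes a transporter of the same family and had effects of -0.13 in SND1XVE and 0.00 in VND7XVE at signals below the filter.

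Regulators of transcription and chromatin numbered 3, all with low signals. AT4G18450 encodes a factor of the AP2/ERF family and gave 162 and 145 in SND1XVE cells with estradiol, against 23.6 and 4.1 in their controls. In VND7XVE cells it gave 52.3 and 56.2 with estradiol, against 23.0 and 39.1 in controls, which leaves the groups apart. The MADS-box gene AT1G17310 gave 138 and 136 in SND1XVE cells with estradiol, against 5.2 and 54.3 in their controls, and 14.3 and 4.9 in VND7XVE cells with estradiol, against 16.3 and 28.6 in their controls. In VND7XVE this gene lay lower with estradiol on both arrays. AT3G19080, with a SWIB domain known from chromatin-remodelling complexes, gave 208 and 155 in SND1XVE cells with estradiol, against 3.0 and 92.2 in their controls. Its VND7XVE signals were 84.5 and 79.0 with estradiol, against 39 and 60 in controls. The effects in SND1XVE and VND7XVE were 2.59 ± 0.39 and 0.60 ± 0.39 for AT4G18450, 1.98 ± 0.52 and -0.59 ± 0.52 for AT1G17310, and 2.11 ± 0.53 and 0.60 ± 0.53 for AT3G19080, and 0 of the 3 met the rule in every repeat that left out 1 array. Without SND1XVE control replicate 1 the SND1XVE effect was 0.85 for AT3G19080 and 1.12 for AT1G17310, both under the limit of 1.2, and without replicate 2 it was 3.36 and 2.85.

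Genes tied to protein turnover numbered 5. AT3G56230 encodes a BTB/POZ-domain protein, a type that can link substrates to ubiquitin ligases. It gave 124 and 131 in SND1XVE cells with estradiol, against 2.0 and 32.9 in their controls, and 28.0 and 28.2 in VND7XVE cells with estradiol, against 51.2 and 27.6 in their controls. HWS encodes the F-box protein HAWAIIAN SKIRT, known for its part in the separation and shedding of floral organs. It gave 256 and 259 in SND1XVE cells with estradiol, against 77.5 and 65.8 in their controls. In VND7XVE cells it gave 135 and 143 with estradiol, against 114 and 125 in controls, a narrow gap without overlap. Its effects were 1.64 ± 0.20 in SND1XVE and 0.20 ± 0.20 in VND7XVE, and those of AT3G56230 were 2.27 ± 0.45 and -0.30 ± 0.45.

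The other turnover genes encode RING-type proteins, many of which are ubiquitin ligases. AT2G47560, of the ATL family, gave 229 and 339 in SND1XVE cells with estradiol, against 55.9 and 49.2 in their controls, and 12.6 and 31.4 in VND7XVE cells with estradiol, against 19.8 and 11.1 in their controls. Its VND7XVE signals, with and without estradiol, were all below both SND1XVE controls. AT1G74990 gave 263 and 244 in SND1XVE cells with estradiol, against 45.4 and 37.0 in their controls, and 103 and 89.5 in VND7XVE cells with estradiol, against 61.8 and 45.4 in their controls. AT5G47050, of the S-ribonuclease binding protein family, gave 2553 and 2481 in SND1XVE cells with estradiol, against 901 and 895 in their controls, and 970 and 1144 in VND7XVE cells with estradiol, against 689 and 842 in their controls. In both AT1G74990 and AT5G47050 the VND7XVE arrays with estradiol lay above their controls, and the VND7XVE effects were 0.70 ± 0.25 and 0.46 ± 0.12, while those in SND1XVE were 2.24 ± 0.25 and 1.47 ± 0.12. The effects of AT2G47560 were 2.11 ± 0.36 in SND1XVE and 0.24 ± 0.36 in VND7XVE.

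**Figure D2:**
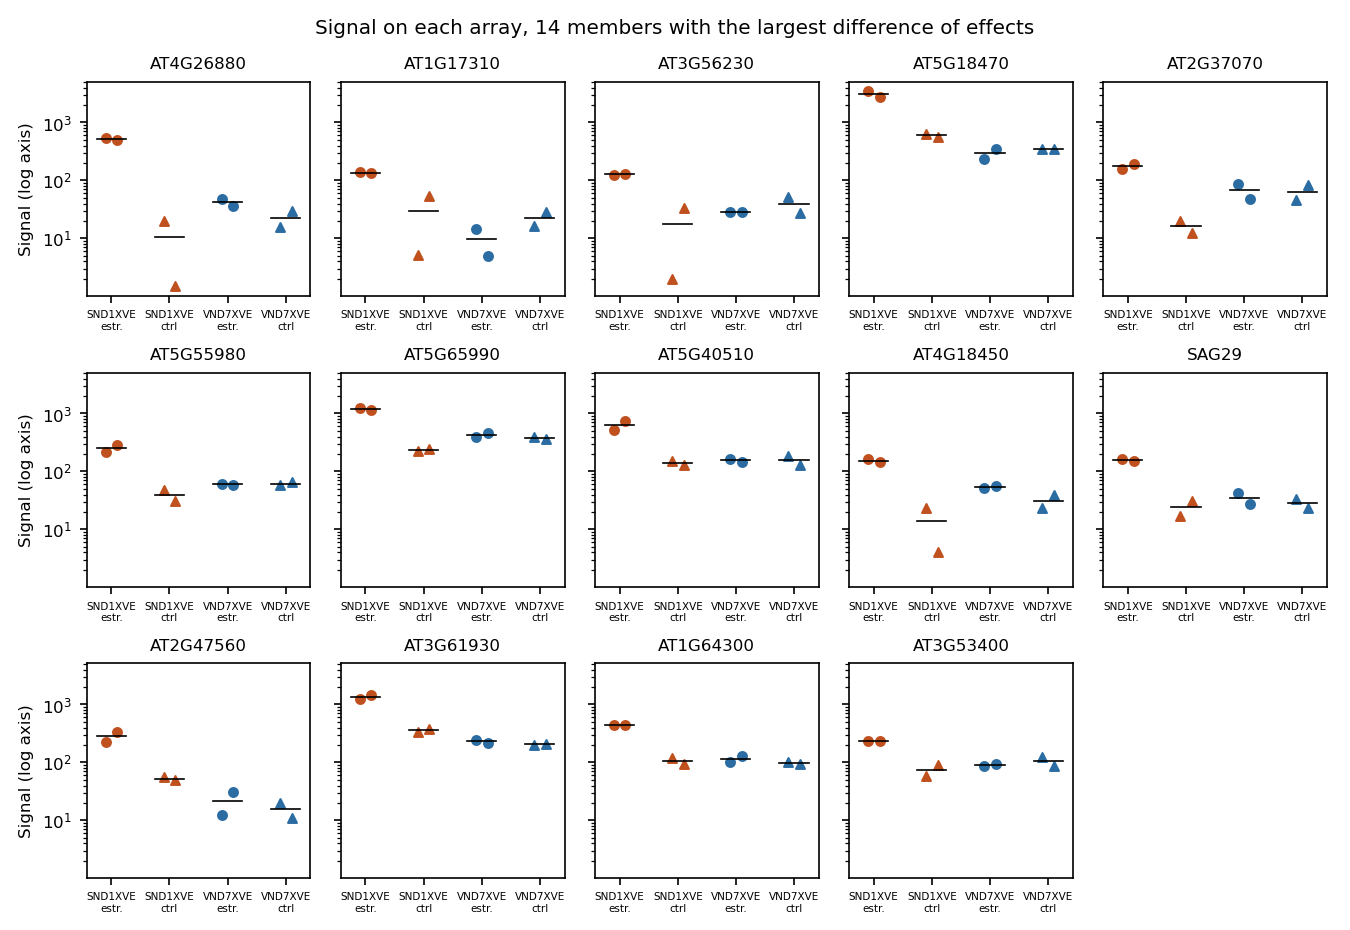
Signal on each array (log axis) for the 14 members naming 1 gene with the largest difference of effects, in SND1XVE cells with estradiol and control (orange) and VND7XVE cells with estradiol and control (blue). Points are arrays, circles with estradiol and triangles control, and bars are means of 2 arrays. In every panel both SND1XVE estradiol arrays lie above the 6 others. The 2 SND1XVE controls lie far apart from each other for AT4G26880, AT1G17310, AT3G56230 and AT4G18450.

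Signalling genes numbered 4, with effects of 1.53 to 1.91 in SND1XVE and 0.04 to 0.39 in VND7XVE. The protein kinase gene AT1G64300 gave 440 and 440 in SND1XVE cells with estradiol, against 117 and 94.4 in their controls, and 103 and 130 in VND7XVE cells with estradiol, against 104 and 92.9 in their controls. AT3G56760 encodes a kinase related to calcium-dependent protein kinases and gave 646 and 677 in SND1XVE cells with estradiol, against 172 and 256 in their controls. Its 4 VND7XVE signals lay between 254 and 286. AT5G04980, of a family of inositol polyphosphate phosphatases, and AT3G09960, of the calcineurin-like phosphoesterase family, had effects of 1.53 ± 0.28 and 1.54 ± 0.37 in SND1XVE, and 0.39 ± 0.28 and 0.24 ± 0.37 in VND7XVE. The kinase genes overlapped between treatments in VND7XVE, whereas AT5G04980 stood at 76.9 and 86.4 with estradiol, against 64 and 53.3 in controls.

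Among enzymes and motor proteins, AT5G40510, of the sucrase and ferredoxin-like family, gave 525 and 729 in SND1XVE cells with estradiol, against 153 and 127 in their controls. In VND7XVE cells it gave 167 and 147 with estradiol, against 187 and 130 in controls, and the effects were 2.03 ± 0.20 and 0.01 ± 0.20. AT3G19000 encodes an oxygenase that depends on 2-oxoglutarate and iron, with effects of 1.62 ± 0.27 in SND1XVE and 0.10 ± 0.27 in VND7XVE. AT4G39050 encodes a kinesin, a motor that moves along microtubules. It lay just inside the limit on the difference of effects, at 1.00 ± 0.22, with 408 and 409 in SND1XVE cells with estradiol, against 155 and 132 in their controls, and 261 and 246 in VND7XVE cells with estradiol, against 180 and 192 in their controls.

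For 8 members no role is given here. AT2G37070 gave 159 and 195 in SND1XVE cells with estradiol, against 19.9 and 12.5 in their controls, while its 4 VND7XVE signals lay between 45.4 and 86.2 and overlapped between treatments. AT5G55980 gave 219 and 283 in SND1XVE cells with estradiol, against 48.3 and 30.7 in their controls, and its 4 VND7XVE signals lay between 57.8 and 64.7. AT3G61930 gave 1242 and 1454 in SND1XVE cells with estradiol, against 335 and 378 in their controls, and 244 and 219 in VND7XVE cells with estradiol, against 201 and 210 in their controls. All 4 VND7XVE signals of AT3G61930 were thus below its SND1XVE controls. AT3G53400 gave 239 and 233 in SND1XVE cells with estradiol, against 58.5 and 89.3 in their controls, and 87.1 and 93.6 in VND7XVE cells with estradiol, against 125 and 86.3 in their controls. The other 4, AT4G13630, AT2G32970, AT5G06280 and AT4G34630, had effects of 1.63, 1.22, 1.37 and 1.38 in SND1XVE and 0.44, -0.06, 0.31 and 0.36 in VND7XVE.

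**Figure D3:**
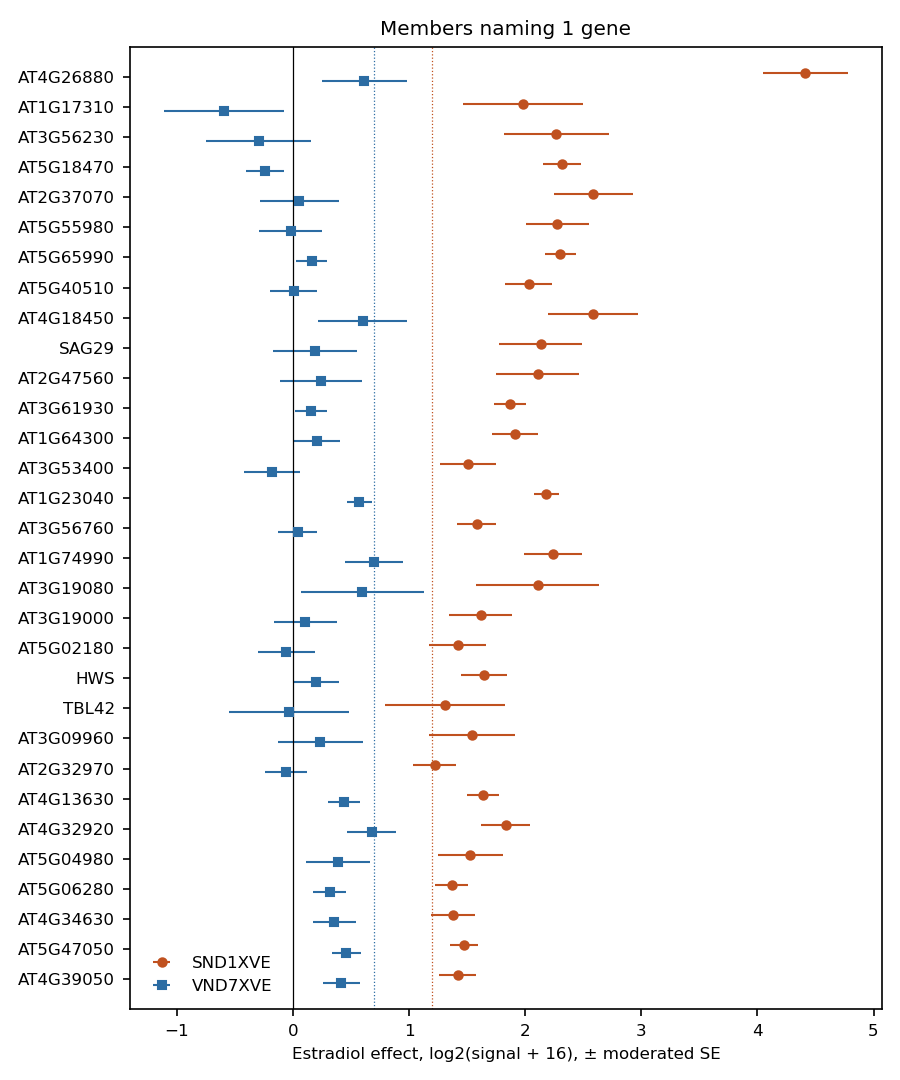
Estradiol effects with moderated SE for the 31 members naming 1 gene, SND1XVE in orange circles and VND7XVE in blue squares, ordered by the difference of effects, on a log2(signal + 16) axis. Dotted lines mark the limits of 1.2 and 0.7; the VND7XVE effects of AT1G74990 and AT4G32920 lie closest to their limit, at 0.70 and 0.68.

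The 24 members that name no single gene had effects of 1.22 to 3.54 in SND1XVE and of -0.73 to 0.64 in VND7XVE. The largest was 254418_at, with 527 and 516 in SND1XVE cells with estradiol, against 21.5 and 40.7 in their controls, and 64.3 and 83.6 in VND7XVE cells with estradiol, against 67.9 and 42.1 in their controls. The probe set 260173_at stood apart in another way. It gave 105 and 114 in SND1XVE cells with estradiol, against 11.7 and 41.6 in their controls, and 23788 and 19852 in VND7XVE cells with estradiol, against 23963 and 22105 in their controls. Very high in VND7XVE cells with either treatment, it met the rule because its signal there did not move with estradiol. The tables name no gene for it, and whether its signal in VND7XVE cells comes from the introduced construct was not tested, so it is not read here as the level of a plant gene.

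The members differed in how far they stayed flat in VND7XVE. Effects were below 0 in 16, from 0 to 0.35 in 19 and from 0.35 to the limit of 0.7 in 20. Both VND7XVE estradiol arrays lay above both controls in 25 members and below them in 4, against 20.6% and 28.2% of all probe sets, and the arrays of the other 26 overlapped. By limma, a linear model with moderated variances fitted across the array, 8 members were called higher with estradiol in VND7XVE at an adjusted p under 0.05. Of the 14768 probe sets tested, 8.15% were called higher. In the other direction 0 members were called, against 6.37% of those tested. At an unadjusted p under 0.05 were 12 of the 55 members, against 3813 of the 14768 probe sets. The 8 included AT1G23040, AT4G13630, AT4G32920 and AT5G47050, and the other 4 name no single gene. The name of the set, raised by SND1 and not VND7, is too strong wherever VND7XVE signals were also higher with estradiol. The rule allows any VND7XVE effect below 0.7, and a member without a call is not thereby shown to be flat. Fewer members were called higher in VND7XVE when any 1 VND7XVE array was left out, and so were fewer of all probe sets. After centring each array on its median 4 members were called, against 1021 of the 14768 probe sets. Since the rule capped the VND7XVE effect, nothing is read from these counts about the set as a whole.

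In SND1XVE both estradiol arrays lay above both controls in all 55 members, against 22.7% of all probe sets, and 53 members were called higher by limma, against 9.37% of those tested. The exceptions were TBL42 and 1 probe set with no listed gene. With the filter at the 60th percentile 34 were called, all of the members that it left in. The difference between the lines was called in 40 members, all with the larger effect in SND1XVE, against 1.09% of the probe sets tested in that direction and 3.06% in either, and these counts follow from the choice of members. The difference was called in fewer members when any 1 estradiol array of either line was left out. Fewer of all probe sets were called then too. Without the filter it was called in 24 members, against 95 of 22746 probe sets with the larger effect in SND1XVE. Without the limma trend it was called in 27, against 58 of 14768. All 55 passed the filter on low signal, which they had to, because the rule asks for a signal of 100 on both SND1XVE estradiol arrays. Both SND1XVE estradiol arrays lay above both VND7XVE estradiol arrays in 53 members, against 30.7% of all probe sets, with 260173_at and a probe set naming several genes as the exceptions.

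Members also differed in their level before estradiol. The mean SND1XVE control signal was under 50 in 19, from 50 to 200 in 19 and at least 200 in 17, of which 3 exceeded 1000. The 2 SND1XVE control arrays differed by more than 1 on the log2 scale in 9 members, 7 of them with a control mean under 50. The 2 SND1XVE estradiol arrays differed by that much in 0. The rule set a signal minimum on both estradiol arrays and none on the controls, so no difference in spread is read from this. For 22 of the 55, among them 16 that name 1 gene, the rule was met whichever of the 8 arrays was left out. They include AT5G18470, AT5G65990, AT5G40510, AT3G61930, AT1G64300, AT1G23040, SAG29 and HWS. A further 24 met it in 6 or 7 of the 8 repeats, AT4G26880 in 6, and 9 in fewer, TBL42 in 5 and AT4G34630 in 4.

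The thresholds cut through a continuous range. Just inside the limit on the SND1XVE effect was AT2G32970 at 1.22, and just outside were AT5G01300 at 1.196 and AT3G48425 at 1.16. AT1G74990 and AT4G32920 lay inside the VND7XVE limit at 0.70 and 0.68, and AT5G54870 lay outside at 0.75. On the difference of effects, AT4G39050 was inside at 1.00, and AT2G20030 outside at 0.99. On the lower SND1XVE estradiol signal, a probe set with no listed gene was inside at 104, and AT5G11360 was outside at 89.7.

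The levels of the members in the absence of estradiol were compared between the lines, a contrast that the rule did not use, although it shares its control arrays with the effects that chose the members. That choice favours members with high VND7XVE or low SND1XVE controls. Of the 55, 9 were called higher in VND7XVE controls than in SND1XVE controls and 5 lower (limma), against 13.7% and 13.8% of the 14768 probe sets tested, or 27.5% in either direction. The median difference of the members was 0.22 against 0.00 over all tested. The control arrays did not overlap in 20 of the 55 with VND7XVE higher and in 7 with it lower, against 25.6% and 26.5% of all probe sets. The more frequent direction is the one that the choice favours, so no trait of the members is read from these counts. Fewer members were called in each direction when either VND7XVE control array was left out. Fewer were called lower without SND1XVE control replicate 2. Over all probe sets, calls in those directions were fewer in these settings too.

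AT5G18470 was lower in VND7XVE controls, with 350 and 342, against 637 and 570 in SND1XVE controls, a difference of -0.77 ± 0.16 (limma, adjusted p = 0.00208). AT3G61930 was lower too, with 201 and 210, against 335 and 378 in SND1XVE controls, a difference of -0.75 ± 0.14 (limma, adjusted p = 0.00088). AT5G65990 was higher in VND7XVE controls, with 386 and 367, against 224 and 243 in SND1XVE controls, a difference of 0.65 ± 0.13 (limma, adjusted p = 0.00167). For these 3 genes the control groups did not overlap, and the calls held under each alternative tried.

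AT2G37070, with a difference of 1.28, HWS, with 0.63, and AT4G34630, with 0.76, were also called higher in VND7XVE controls, and AT2G47560, at -1.14, was called lower (limma, adjusted p = 0.01, 0.0253, 0.00636 and 0.0259). Each of these 4 calls was lost when 1 or more arrays were left out. With SND1XVE control replicate 2 removed, the adjusted p by limma was 0.053 for AT2G37070, 0.101 for HWS, 0.098 for AT4G34630 and 0.0603 for AT2G47560. With VND7XVE control replicate 2 removed it was 0.126 for AT2G37070, 0.126 for HWS and 0.133 for AT2G47560. With VND7XVE control replicate 1 removed it was 0.0651 for HWS and 0.0833 for AT4G34630. AT2G47560 also lost its call when SND1XVE estradiol replicate 2 (0.054) or SND1XVE control replicate 1 (0.0934) was removed. Without the filter the calls of HWS (limma, adjusted p = 0.0736) and AT2G47560 (0.0703) were lost, and without the limma trend that of AT4G34630 (0.0641). The other 7 called members name no single gene, and the largest difference was that of 260173_at at 9.17 ± 0.22, whose source in VND7XVE cells was not tested. The mesophyll marker LHCB4.1 was also higher in VND7XVE controls, with means of 5537 in VND7XVE controls and 2688 in SND1XVE controls (limma, adjusted p = 1.04e-06). The other measured mesophyll marker, RCA, had means of 2762 and 2341 and did not pass (limma, adjusted p = 0.0952). The part of these markers in the differences of the members was not tested.

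**Figure D4:**
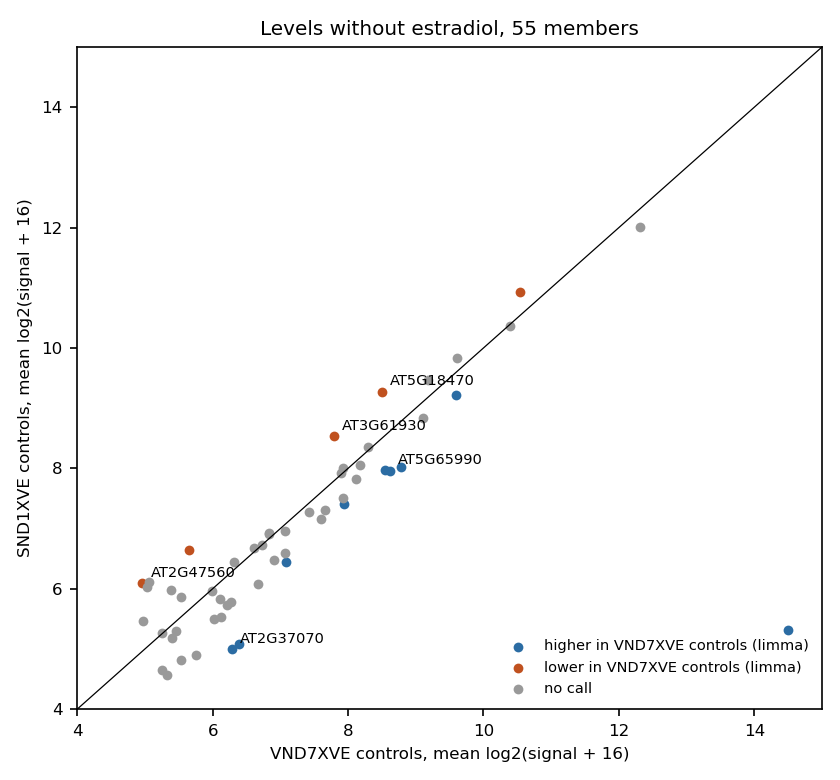
Mean log2(signal + 16) of each of the 55 members in VND7XVE controls (x axis) and SND1XVE controls (y axis), coloured by the limma call; the line marks equal levels. The 9 members called higher in VND7XVE controls lie below the line, 260173_at far to the right, and the 5 called lower lie above it.

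Beside the members, genes of the secondary wall were taken from lists of 94 other genes for cellulose, xylan, lignin, wall transcription factors, vessel cell death, wall microtubules and the STIG1 family. Of these 14 have a named probe set and 12 were tested. In SND1XVE 4 rose and 3 fell, and in VND7XVE 6 rose and 4 fell, where 9.37% and 7.06% of all tested probe sets rose and fell in SND1XVE and 8.15% and 6.37% in VND7XVE. Medians of the 12 were -0.15 and 0.37, against 0.02 and -0.03 over all tested. IRX15 and IRX10 of xylan synthesis, the peroxidase gene PRX72 and the carboxypeptidase gene SCPL48 rose in both lines, and HCT, PRX52 and PRX71 fell in both. PRX66 and SCPL49 rose and IRX15-L fell in VND7XVE; in SND1XVE their effects were -0.05, 0.29 and -0.42, without a call, although IRX15-L passed the test there after quantile normalization (-0.54, limma, adjusted p = 0.0239) or median centring (-0.52, 0.0246). Members had been set aside from these lists, so none of the 12 tested genes could meet the rule. The member AT4G26880 is listed only through the STIG1 family, in lists drawn with earlier results of these data known.

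The calls of PRX52 and SCPL49 depended on single arrays and on the limma trend. In SND1XVE the call of PRX52 was lost without estradiol replicate 1 (limma, adjusted p = 0.0617) and without control replicate 1 (0.0738), after quantile normalization (0.0601) and without the trend (0.0796). In VND7XVE it was lost without estradiol replicate 2 (limma, adjusted p = 0.0597), without control replicate 1 (0.13) and without the trend (0.0802). The call of SCPL49 in VND7XVE was lost without estradiol replicate 2 (0.0796), without control replicate 2 (0.121) and without the trend (0.081).

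Genes next to the members on the chromosome were examined as a measure the rule did not use, a choice made after the data were seen. The 31 named members have 62 protein-coding neighbours, of which 29 have a named probe set and 18 were tested; 0 of the 62 were members themselves. In SND1XVE 4 of the 18 rose and 1 fell, against backgrounds of 9.37% and 7.06%. In VND7XVE 3 rose and 1 fell, against backgrounds of 8.15% and 6.37%. AT5G18460, next to the lectin gene AT5G18470, rose by 1.89 in SND1XVE and by 2.71 in VND7XVE (limma, adjusted p = 2.28e-06 and 2.05e-08). AT5G47060, next to AT5G47050, rose by 1.76 in SND1XVE and by 1.47 in VND7XVE (limma, adjusted p = 6.48e-07 and 3.9e-06). AT5G55970, next to AT5G55980, rose by 0.90 in SND1XVE and by 0.80 in VND7XVE (limma, adjusted p = 1.45e-05 and 4.92e-05). These neighbours thus rose in both lines. In VND7XVE the members AT5G18470 and AT5G55980 had effects of -0.24 and -0.02, while AT5G47050, at 0.46, was itself called higher. AT3G09970, next to AT3G09960, rose by 0.46 in SND1XVE (limma, adjusted p = 0.0123) and stood at 0.03 in VND7XVE. The SND1XVE call of AT3G09970 was lost without SND1XVE estradiol replicate 1 (0.114), without SND1XVE control replicate 2 (0.0503) and without the limma trend (0.0519). AT2G47550, next to AT2G47560, fell by 0.41 in SND1XVE and by 0.56 in VND7XVE (limma, adjusted p = 0.0121 and 0.00118), and the SND1XVE call was lost without SND1XVE estradiol replicate 1 (0.166), without SND1XVE control replicate 2 (0.115), without the filter (0.0549) and without the trend (0.107).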

How the data were processed

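Per the labels' protocols, RNA was labelled with an Affymetrix kit. Signal intensities, 1 per probe set and array, were deposited as GCOS made them, per the submitters' processing notes, its settings being not given in the sources used here. They were used as deposited, and 0 sample columns were left unused. Of 22746 probe sets, 13513 name 1 gene, 503 several and 8730 are not listed in the platform annotation; 13436 of the 13513 matched RefSeq genes, used for names and gene order only (assembly TAIR10.1). Groups and replicate numbers come from the sample titles. No label says whether replicates came from separate cultures; p-values thus cover only array-to-array spread, possibly technical, and the small number of arrays limits precision.

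The 14768 probe sets that exceeded an array's 40th percentile on 2 or more arrays were fitted with limma 3.58.1 in R 4.3.3 (4 group means of log2(signal + 16), eBayes with trend, 4 residual degrees of freedom), with two-sided tests and Benjamini-Hochberg adjustment at a threshold of 0.05. The fit was tested on simulated data. Folds refer to signals with 16 added, which understates changes of low signals. Members and lists were chosen with earlier results of these data known. The lists are those named in the report; cellulose and wall microtubules had 0 genes with a named probe set, and the 1 wall transcription factor measured, C3H14, was not called. Members naming 1 gene are all named, and the 14 with the largest difference of effects and those with a symbol or in a list are given on every array; per-array values of the remaining members, the role groups, neighbours and SWEET and TBL relatives were added after the values were seen. Same-numbered arrays did not deviate together (r of -0.031 to 0.024 between groups), so numbers were not used as pairs. Other settings tried were a pseudocount of 1 or 64, normalization by quantiles, median centring, the filter, the limma trend and robust estimation, the replicate block, the thresholds of the rule, and leaving out each array.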

Additional observations from a re-analysis of the deposited data

Results flagged for a closer look

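Wall genes outside the members also differed between the lines by the limma test of the difference itself (SND1XVE minus VND7XVE). PRX66 differed by -3.19, with effects of -0.05 in SND1XVE and 3.14 in VND7XVE (adjusted p = 5.1e-05). PRX72 differed by -1.40, with 5.36 and 6.77 (adjusted p = 0.000749), a call lost with a pseudocount of 1 (-0.93, adjusted p = 0.107). SCPL48, of a serine carboxypeptidase family, differed by 0.85, with 3.46 and 2.61 (adjusted p = 0.00221), a call lost without the limma trend (adjusted p = 0.0798). Its signal was nevertheless higher in VND7XVE cells, with means of 2622.5 in their controls and 16088.4 with estradiol. In SND1XVE cells the means were 519.7 and 5882.5. The part of this higher starting level in the difference was not tested.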

How the results depend on the processing

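The rule gave 34 members with a pseudocount of 64, 137 without a signal minimum, 36 with a minimum of 200, and 35 with a VND7XVE limit of 0.35. It gave 62 with a pseudocount of 1 and 49 after quantile normalization or median centring, of which 49, 48 and 46 were among the 55. Leaving out each array gave 49 to 72. The median SND1XVE effect was 1.25 with a pseudocount of 64 and 1.61 to 1.77 with an array left out, and the median VND7XVE effect 0.14 to 0.23. Centring moved the median of all probe sets in SND1XVE to -0.11 in place of -0.01, and in VND7XVE to -0.16 in place of -0.05. Members higher in VND7XVE controls than in SND1XVE controls numbered 5 without the filter and 3 to 11 with an array left out, and those lower 3 to 6. Members called higher with estradiol in VND7XVE numbered 4 after centring, 5 without the filter, 4 without the trend and 3 to 8 with an array left out. Wall genes of the lists that rose numbered 4 in SND1XVE and 5 to 6 in VND7XVE with an array left out, and those that fell 2 to 3 and 3 to 4. With the replicate block, 9 members were higher and 5 lower in VND7XVE controls, as without it, and the list counts did not move. Over all probe sets, calls higher with estradiol in VND7XVE numbered 1204 of 14768, 1021 after centring and 955 without the trend. Without the filter they numbered 1034 of 22746. Calls higher in VND7XVE controls numbered 2026 of 14768, and 1619 of 22746 without the filter. Both were fewer when any VND7XVE array was left out. Without SND1XVE control replicate 1, fewer probe sets but more members were called in each direction between the controls. The causes were not tested. The share of promoters with a motif was not run.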
